A study of Mus musculus with 6 samples.

Results

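In the mouse genome, 3 clusters each place a let-7 microRNA (miRNA), a miR-99 or miR-100 miRNA and a miR-125 miRNA one after another on the same strand, and their 9 loci and the host transcript Mir99ahg make up the 10 members described here. The loci were taken by name from the 2265 features of the small RNA sequencing (small RNA-seq) count table, and Mir99ahg from the 54189 features of the RNA sequencing (RNA-seq) count table. All 10 were found. The clusters are called by their first miRNA: the Mir100 cluster (Mir100, Mirlet7a-2, Mir125b-1), the Mir99a cluster (Mir99a, Mirlet7c-1, Mir125b-2) and the Mir99b cluster (Mir99b, Mirlet7e, Mir125a).

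RNA came from the Achilles tendon of mice at 4 weeks of age. Control mice were Dicer f/f, ScxHt mice carried the ScxCre/+ Knock In with Dicer +/+, and Dicer cKO mice carried the ScxCre/+ Knock In with Dicer f/f. The floxed Dicer alleles were thus shared by Control and Dicer cKO, and the Cre allele by ScxHt and Dicer cKO. Cre was driven from the Scx locus, so that recombination is limited mainly to tendon and ligament cells, and both genotypes with the Cre allele kept 1 unmodified Scx allele. Each genotype gave 1 sample, sequenced once per assay, for 6 libraries in all. No p-value can be computed, and the spread between mice of one genotype is unknown.

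DICER cuts hairpin precursors into mature miRNAs of about the same length, which guide silencing complexes to mRNAs mainly through the seed, the bases from position 2 to position 8. Loci of one cluster are held to be copied into a common primary transcript, from which DROSHA releases each hairpin separately, so that partners share their transcription but not their later processing or decay. The let-7 family is known for restraining growth and fetal genes such as Hmga2 and Lin28, miR-99 and miR-100 for acting on Mtor and insulin-like growth factor signalling, and miR-125 for acting on apoptosis and differentiation genes.

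The mature sequences are shown because they mark the loci that share one, whose counts cannot be told apart. They were taken from RefSeq (GRCm38.p6) and are written 5′ to 3′ with the seed in capitals.
miR-99a-5p (Mir99a): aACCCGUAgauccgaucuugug
miR-100-5p (Mir100): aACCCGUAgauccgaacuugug
miR-99b-5p (Mir99b): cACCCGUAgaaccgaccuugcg
let-7a-5p (Mirlet7a-2, Mirlet7a-1): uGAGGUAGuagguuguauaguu
let-7c-5p (Mirlet7c-1, Mirlet7c-2): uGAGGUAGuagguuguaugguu
let-7e-5p (Mirlet7e): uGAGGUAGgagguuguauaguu
miR-125b-5p (Mir125b-1, Mir125b-2): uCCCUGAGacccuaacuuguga
miR-125a-5p (Mir125a): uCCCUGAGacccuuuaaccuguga
Each of the 3 families keeps 1 seed over the 3 clusters. Counted from the 5′ end, miR-99a and miR-100 differ by U16A (the base of miR-99a, the position, the base of miR-100), let-7a and let-7c by A19G, and let-7a and let-7e by U9G. miR-99a differs from miR-99b at 4 positions, A1C, U11A, U16C and U21C.

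The Mir100 cluster lies on the plus strand of chromosome 9 from 41531425 to 41582002 (GRCm38), with 5211 bp between Mir100 and Mirlet7a-2 and 45114 bp between Mirlet7a-2 and Mir125b-1. In GENCODE vM21 all 3 loci are in introns of the noncoding genes 3110039I08Rik and Gm49317 on the same strand, which were not analysed here. The Mir99a cluster lies on the plus strand of chromosome 16 from 77598936 to 77646343, in introns of Mir99ahg (77236317 to 77773427), with 656 bp from Mir99a to Mirlet7c-1 and 46522 bp on to Mir125b-2. The Mir99b cluster is far more compact, on the plus strand of chromosome 17 from 17830188 to 17830879, with gaps of 94 and 367 bp. Mir99b and Mirlet7e are in an intron of the gene Spaca6, and Mir125a overlaps a Spaca6 exon.

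The hairpins of Mir99a and Mirlet7c-1 are the closest partners in the Mir99a cluster, and they are shown with the mature 5′ strand in capitals (RefSeq, GRCm38.p6).
Mir99a, chr16:77598936-77599000, plus strand: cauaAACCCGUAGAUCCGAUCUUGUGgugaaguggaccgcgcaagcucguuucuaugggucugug
Mirlet7c-1, chr16:77599657-77599750, plus strand: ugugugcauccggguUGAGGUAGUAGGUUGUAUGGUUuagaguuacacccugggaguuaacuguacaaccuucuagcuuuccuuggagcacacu

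Small RNA-seq counts added up to 8435829 to 10986541 per library and RNA-seq counts to 14959399 to 16244232. Dicer1, the targeted gene, had 1919 reads in Control, 2025 in ScxHt and 1621 in Dicer cKO of RNA-seq, a count over the whole gene that does not isolate the floxed part. The 8 tendon fibroblast markers (Scx, Mkx, Tnmd, Fmod, Col1a1, Thbs4, Kera and Dcn) were all detected, and held 9.14% of the RNA-seq counts in Control, 7.64% in ScxHt and 5.15% in Dicer cKO. The 7 skeletal muscle markers held 5.20%, 2.92% and 8.92%, and the 6 Schwann cell markers 0.0233%, 0.0302% and 0.0726%. Such sums follow their most abundant genes. In ScxHt over Control the median log2 ratio was 0.25 for the tendon fibroblast markers and -0.17 for the Schwann cell markers, opposite in direction to their shares. In such bulk RNA, fewer cells of a type and less RNA per cell cannot be told apart.

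The 9 loci were among the abundant small RNAs of the tendon. Together they held 29.9% of the small RNA counts in Control, 31.6% in ScxHt and 30.0% in Dicer cKO. With Mir125b-2 left out of the sum, but not out of the library total, the shares were 22.1%, 23.5% and 21.7%. The deposited RPKM values, read counts scaled by the length of the hairpin and the total of the library, gave the same order in every cluster and library. By RPKM the miR-125 locus was highest, the let-7 locus next and the miR-99 or miR-100 locus lowest. In read counts, however, Mirlet7c-1 exceeded Mir125b-2 in Control (871310 and 853761) and in ScxHt (701702 and 689133). Their order in those libraries thus rests on the hairpin lengths of 94 and 71 bp. In the Control library the RPKM of the Mir100 cluster was 1011175 for Mir125b-1, 336026 for Mirlet7a-2 and 6028 for Mir100. In the Mir99a cluster it was 1094503 for Mir125b-2, 843692 for Mirlet7c-1 and 32508 for Mir99a. The Mir99b cluster had the narrowest range, with 341977 for Mir125a, 45312 for Mirlet7e and 19737 for Mir99b.

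Not every read can be given to 1 locus. let-7a, let-7c and miR-125b each have 2 loci with the same mature sequence, and the counts of such loci were nearly equal. Mir125b-1 had 855417, 691134 and 703160 reads in the Control, ScxHt and Dicer cKO libraries, and Mir125b-2 had 853761, 689133 and 701044. Mir125b-1 exceeded Mir125b-2 by 1656, 2001 and 2116 reads in these libraries, at most 0.301% of its count. Mirlet7a-2 and Mirlet7a-1, which lies outside the clusters, differed by at most 0.244% of the reads of Mirlet7a-1, and Mirlet7c-1 and Mirlet7c-2 by at most 1.45% of those of Mirlet7c-2. Reads that fit both loci were therefore taken as counted at both, and the values of Mirlet7a-2, Mirlet7c-1, Mir125b-1 and Mir125b-2 are sums over 2 loci. Mir99a, Mir100, Mir99b, Mirlet7e and Mir125a have a mature sequence of their own. However, miR-99a and miR-100 differ by 1 base, as do let-7a and let-7e, and how reads with a mismatch were assigned is not stated. Whether reads of one were counted at the other was not tested.

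**Figure D1:**
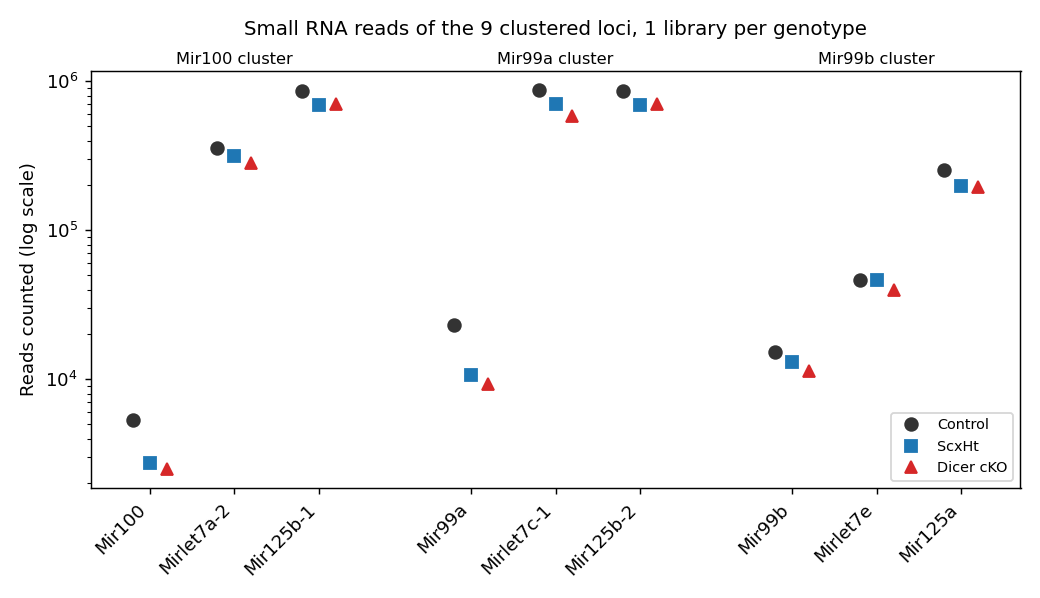
Reads counted at each of the 9 loci (vertical axis, log scale) in the Control, ScxHt and Dicer cKO small RNA-seq libraries, 1 point per library, not scaled for library size. Mir99a goes from 23215 reads in Control to 10685 and 9254 in the ScxHt and Dicer cKO libraries, and Mir100 from 5298 to 2739 and 2503, while Mir99b stays between 11347 and 15179.

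The first question was which of the 9 loci differed between genotypes. Mir99a and Mir100 were lower in both libraries with the ScxCre allele than in Control, and their cluster partners and Mir99b were not lower to that extent. For each comparison, counts were divided by the DESeq2 size factors of the 2 libraries, and a locus with a mean scaled count (baseMean) above 15 was called lower at a ratio below 0.60 and higher at a ratio above 1.67. All 9 loci passed this minimum. For Dicer cKO/Control, 2 of the 9 loci were lower and 0 were higher, beside 4.19% lower and 8.38% higher among the 334 features tested. For ScxHt/Control, the same 2 loci were lower and 0 higher, beside 6.93% and 3.01% of 332 features. For Dicer cKO/ScxHt, 0 of the 9 were lower or higher, beside 2.17% and 11.2% of 322 features. The median log2 ratio of the 9 loci was -0.19, -0.14 and -0.16 in these comparisons, against -0.02, -0.02 and -0.01 over all features tested. The ratios to Control share the Control library, and a low or high Control value would move both alike.

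Mir99a had 23215 reads in Control, 10685 in ScxHt and 9254 in Dicer cKO. Its ratio was 0.457 (95% exact counting interval 0.446 to 0.468) in Dicer cKO and 0.519 (0.507 to 0.531) in ScxHt, both over Control, and 0.866 in Dicer cKO over ScxHt. The Control library was high, and the libraries with the Cre allele lay close together. These intervals, and all those given for ratios, cover counting error alone and not the spread between mice. They may be too narrow even for counting error, because several reads can stem from 1 molecule.

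Mir100, which has the same seed and lies on another chromosome, had 5298, 2739 and 2503 reads in the same order. Its ratio was 0.541 (0.516 to 0.568) in Dicer cKO and 0.582 (0.556 to 0.610) in ScxHt, both over Control, and 0.914 in Dicer cKO over ScxHt. The order of the libraries was that of Mir99a, and the ScxHt/Control interval crossed the limit of 0.60.

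Mir99b, the third locus with this seed, had 15179, 13122 and 11347 reads, with ratios over Control of 0.857 (0.836 to 0.878) in Dicer cKO and 0.974 (0.951 to 0.997) in ScxHt, and 0.865 in Dicer cKO over ScxHt. It stood apart from Mir99a and Mir100 in ScxHt/Control, where it was close to 1. In the Control library Mir99a had 1.53 reads per read of Mir99b, and in the ScxHt and Dicer cKO libraries 0.814 and 0.816.

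The let-7 loci lay nearer to 1. Mirlet7a-2 had 354409, 314690 and 281882 reads in the Control, ScxHt and Dicer cKO libraries, Mirlet7c-1 had 871310, 701702 and 587084, and Mirlet7e had 46297, 46539 and 39739. The Dicer cKO/Control ratio was 0.912 for Mirlet7a-2, 0.772 for Mirlet7c-1 and 0.984 for Mirlet7e, and the ScxHt/Control ratio was 1.0004, 0.907 and 1.13. Between the libraries with the Cre allele, the Dicer cKO/ScxHt ratios were 0.896, 0.837 and 0.854, and all 12 loci of the let-7 family were below 1 (0.635 for Mirlet7i to 0.925 for Mirlet7f-1). The median log2 ratio of the family was -0.24, against -0.01 over all features tested. Loci with nearly equal counts, such as those of let-7a or of let-7c, are not separate results.

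The miR-125 loci had the ratios closest to 1 of the 9 loci between the libraries with the Cre allele. The Dicer cKO/ScxHt ratio was 1.02 for Mir125b-1 and Mir125b-2, and 0.983 for Mir125a, which had 255486, 198555 and 195247 reads in the Control, ScxHt and Dicer cKO libraries. Against Control, Mir125b-1 had ratios of 0.942 in Dicer cKO and 0.910 in ScxHt, and Mir125a had 0.876 in both. Mir351, the fourth locus with the miR-125 seed, had 2498, 1945 and 2426 reads and a Dicer cKO/Control ratio of 1.11.

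**Figure D2:**
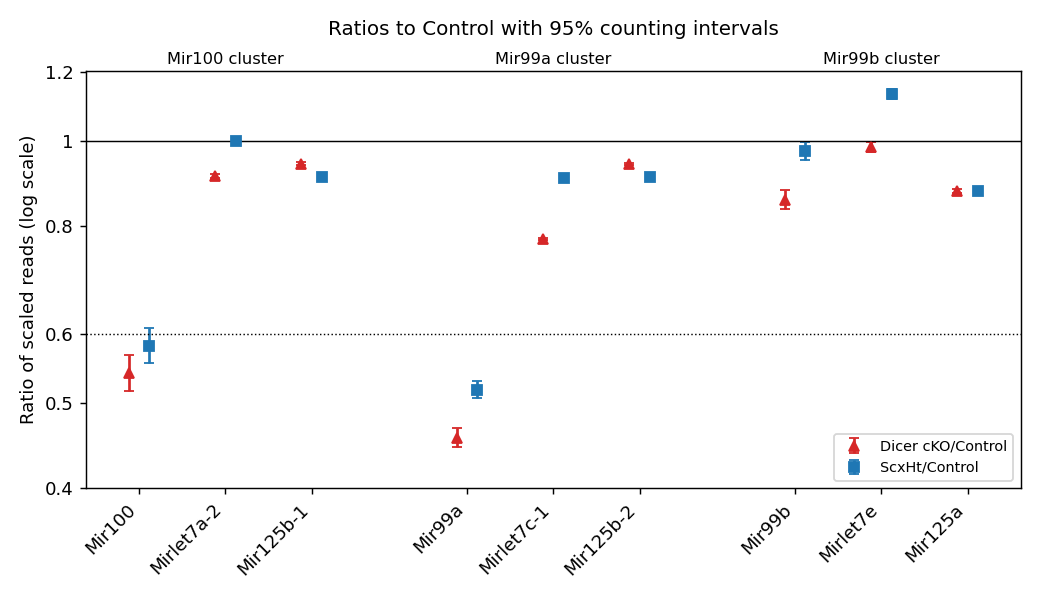
Ratios of scaled small RNA-seq reads to Control (vertical axis, log scale) for Dicer cKO and ScxHt, with 95% exact counting intervals from 1 library per genotype, many of them narrower than the symbol. The dotted line marks 0.60 and the solid line 1, and Mir100 and Mir99a are the loci below 0.60, at 0.541 and 0.457 in Dicer cKO and 0.582 and 0.519 in ScxHt.

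Scaling moved these values. Total counts in place of size factors raised each Dicer cKO/Control ratio by a factor of 1.14 (0.18 on the log2 scale) and each ScxHt/Control ratio by 1.16 (0.21). Mir99a stayed below 0.60 under all 5 scalings, at 0.457 to 0.519 in Dicer cKO and 0.519 to 0.599 in ScxHt. Mir100 reached 0.615 and 0.673 with total counts. Of the 9 loci, 5 were below 1 under every scaling for Dicer cKO/Control (Mir100, Mir99a, Mirlet7c-1, Mir99b and Mir125a) and 2 for ScxHt/Control (Mir100 and Mir99a). Mirlet7a-2 and Mirlet7e were at or above 1 under every scaling for ScxHt/Control, and for the remaining values against Control the direction depended on the scaling.

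The marker levels of tendon and muscle cells also differed between the libraries. The counting interval of the ratio to Control lay below 1 for 8 of 8 tendon fibroblast markers in Dicer cKO but for 2 of 8 in ScxHt, where 6 of 8 were above 1. All 7 muscle markers were above 1 in Dicer cKO, and 5 of 7 below 1 in ScxHt. Intervals are narrow at high counts, and the share of all genes with an interval clear of 1 was not computed. The median log2 ratio to Control was -0.88 in Dicer cKO and 0.25 in ScxHt for the tendon fibroblast markers. For the muscle markers it was 0.86 and -0.27, against -0.03 and 0.02 over all genes tested. Muscle miRNAs (Mir1a-1, Mir133a-1, Mir206, Mir208b and Mir499) held 4.59%, 2.99% and 8.35% of the small RNA counts in the Control, ScxHt and Dicer cKO libraries. Mir99a and Mir100 were lower than in Control in both, and the part of cell makeup in their values was not tested.

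The second question was whether partners of a cluster kept their proportions. A ratio of 2 partners within 1 library needs no scaling, and dividing it by the same ratio in another library shows whether the partners moved apart, whatever the lengths of their hairpins. Mir99a and Mir100 moved apart from both their partners between Control and the libraries with the Cre allele. Each of these partners shares its mature sequence with a locus elsewhere, so that these ratios are not of products of 1 transcript alone. Over Control, Mir99b was lower relative to Mirlet7e, but relative to Mir125a it was near 1 in Dicer cKO and above 1 in ScxHt.

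In the Mir99a cluster, there were 26.6 reads of Mir99a per 1000 of Mirlet7c-1 in Control, 15.2 in ScxHt and 15.8 in Dicer cKO. The ratio of the Dicer cKO value to Control was 0.592 (conditional exact 95% interval 0.577 to 0.606), that of ScxHt 0.572 (0.558 to 0.585), and the 2 libraries with the Cre allele differed by a factor of 1.04 (1.006 to 1.06). Control stood alone in this ratio. Against Mir125b-2, Mir99a had 27.2, 15.5 and 13.2 reads per 1000, with 0.485 (0.474 to 0.497) in Dicer cKO and 0.570 (0.557 to 0.584) in ScxHt over Control.

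The other pair of this cluster behaved differently. Mirlet7c-1 had 1.02 reads per read of Mir125b-2 in both Control and ScxHt, and 0.837 in Dicer cKO. The ratio was 0.998 (0.993 to 1.002) for ScxHt/Control, 0.821 (0.817 to 0.824) for Dicer cKO/Control and 0.822 for Dicer cKO/ScxHt. Here Dicer cKO was the library that stood alone. As both loci share their mature sequence with a locus elsewhere, this ratio is of let-7c to miR-125b and not of this cluster alone.

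In the Mir100 cluster, Mir100 had 14.9 reads per 1000 of Mirlet7a-2 in Control, 8.70 in ScxHt and 8.88 in Dicer cKO. These gave 0.594 (0.566 to 0.623) in Dicer cKO and 0.582 (0.556 to 0.610) in ScxHt, both over Control, and 1.02 (0.966 to 1.08) in Dicer cKO over ScxHt. Per 1000 reads of Mir125b-1, Mir100 had 6.19, 3.96 and 3.56, with 0.575 in Dicer cKO and 0.640 in ScxHt over Control. The pattern of Mir100 against its let-7 partner was close to that of Mir99a against its own. Mirlet7a-2 against Mir125b-1 stayed between 0.880 and 1.10 in the 3 comparisons.

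In the Mir99b cluster, where no mature sequence is shared with another locus, Mir99b had 328 reads per 1000 of Mirlet7e in Control, 282 in ScxHt and 286 in Dicer cKO. The ratio was 0.871 (0.847 to 0.896) in Dicer cKO and 0.860 (0.837 to 0.883) in ScxHt over Control. Against Mir125a it was 0.978 (0.954 to 1.003) and 1.11 (1.09 to 1.14). The largest shift of the cluster was between Mirlet7e and Mir125a, at 1.29 (1.28 to 1.31) in ScxHt and 1.12 (1.11 to 1.14) in Dicer cKO over Control.

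**Figure D3:**
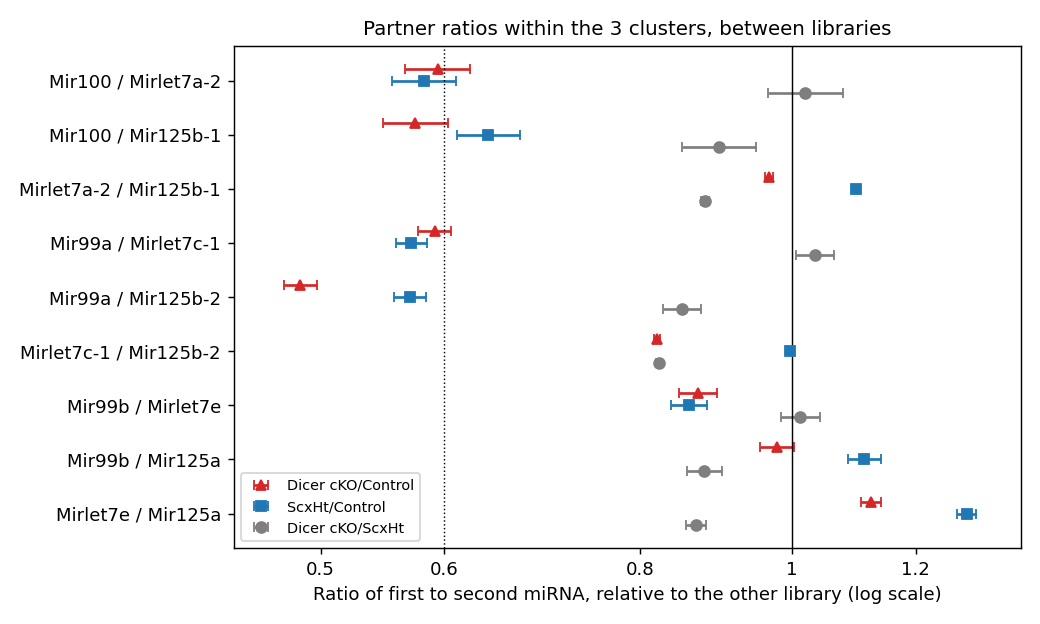
Ratio of the first to the second named partner in one library divided by the same ratio in the other (horizontal axis, log scale), for the 9 pairs within the 3 clusters and the 3 comparisons, with conditional exact 95% counting intervals. The Mir100 and Mir99a pairs lie at 0.485 to 0.640 against Control and at 0.851 to 1.04 between Dicer cKO and ScxHt, and the other pairs between 0.821 and 1.29.

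With the limits of 0.60 and 1.67, 4 of the 9 pairs were past a limit in Dicer cKO over Control, 3 in ScxHt over Control and 0 in Dicer cKO over ScxHt. Pairs that share a locus are not independent. As background, 285 pairs of miRNA loci on the same strand within 51000 bp, with at least 100 reads at both loci in each library and without a shared mature sequence, were compared in the same way, the 9 pairs included. Of these, 11.9% were past a limit in Dicer cKO over Control, 4.21% in ScxHt over Control and 11.9% in Dicer cKO over ScxHt. Of the 276 other pairs, 226 lie on chromosome 12. Among the 50 pairs elsewhere, 5, 6 and 7 were past a limit, so that partners with different ratios also occurred in other clusters. The background was added after the ratios of the members were seen.

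Loci of one family in different clusters were compared likewise. There were 4.38 reads of Mir99a per read of Mir100 in Control, 3.90 in ScxHt and 3.70 in Dicer cKO. This gave 0.844 (0.7997 to 0.890) in Dicer cKO and 0.890 (0.845 to 0.938) in ScxHt over Control, a shift of about the size of that between Mir99b and Mirlet7e. Mir99a to Mir99b gave 0.533 (0.515 to 0.552) in Dicer cKO and 0.532 (0.515 to 0.550) in ScxHt over Control, and Mir100 to Mir99b gave 0.632 and 0.598. In the let-7 family, Mirlet7c-1 to Mirlet7e gave 0.785 and 0.801, and Mirlet7a-2 to Mirlet7e gave 0.927 and 0.883. Mir125b-1 to Mir125a gave 1.08 and 1.04. Of these pairs, the ones of Mir99a or Mir100 with Mir99b were farthest from 1 against Control.

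Among the 223 small RNA features with at least 100 reads in each library, Mir100 had a distance of 0.30 from Mir99a over the log2 ratios Dicer cKO/Control and ScxHt/Control. The 5 nearest features outside the clusters were Mir872, Mir10b, Snord43, Mir10a and Mir1839, at distances of 0.49 to 0.58. Mir10b and Mir10a belong to the same extended family as miR-99 and miR-100, and their seed is that of miR-99 with changes toward its end. Both are shown for this likeness, with the seed in capitals (RefSeq, GRCm38.p6).
miR-10a-5p (Mir10a): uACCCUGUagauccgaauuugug
miR-10b-5p (Mir10b): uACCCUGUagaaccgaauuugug
Mir10b had 24997, 12362 and 13983 reads in the Control, ScxHt and Dicer cKO libraries, with ratios to Control of 0.557 (0.545 to 0.569) in ScxHt and 0.641 (0.628 to 0.655) in Dicer cKO. Mir10a had 6331, 3451 and 3527 reads, with 0.614 and 0.638. Of the 5 loci of the extended family, Mir99b was nearest to 1, at 0.857 in Dicer cKO and 0.974 in ScxHt. Neither Mir10 locus was past the lower limit in Dicer cKO, and in ScxHt Mir10b alone was. Both were picked for nearness to Mir99a on these same ratios, so their likeness to it follows from that choice. The share of all features with ratios this low was not computed. Mir872 (937, 519 and 496 reads), a miRNA of another seed, was likewise among the 5 nearest features. So was Snord43 (607, 340 and 330 reads), a small nucleolar RNA and no miRNA.

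**Figure D4:**
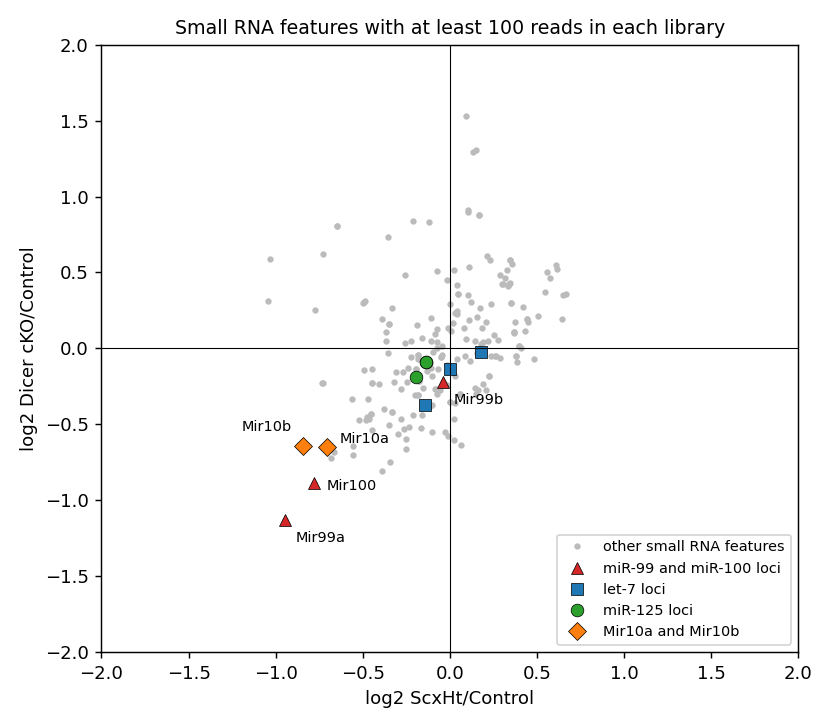
log2 ratios of ScxHt/Control (horizontal axis) and Dicer cKO/Control (vertical axis) for the 223 small RNA features with at least 100 reads in each library, 1 point per feature. Both axes share the Control library. Mir99a and Mir100 lie at the lower left with Mir10a and Mir10b, and the other 7 loci of the clusters lie between -0.37 and -0.02 on the vertical axis.

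The third question was whether the overlapping transcripts changed with their miRNAs. Mir99ahg, a long noncoding RNA with 17 transcripts in GENCODE vM21, had ratios near 1. It had 1718 reads in Control, 1778 in ScxHt and 1609 in Dicer cKO of RNA-seq, an RPKM of 7.53, 8.03 and 7.66. Its ratio was 0.973 (0.908 to 1.04) in Dicer cKO and 0.992 (0.928 to 1.06) in ScxHt, both over Control, and 0.997 (0.931 to 1.07) in Dicer cKO over ScxHt. All 3 libraries were close together. The deposited RPKM and counts give a length of 14041 bp for Mir99ahg, against 537111 bp from its start to its end in GENCODE vM21, which leaves most of its introns out. The miRNAs lie in introns, so that the count does not measure the primary transcript at the miRNAs. The Mir99a ratio was 0.470 of the Mir99ahg ratio for Dicer cKO/Control and 0.523 for ScxHt/Control, that of Mirlet7c-1 was 0.794 and 0.915, and that of Mir125b-2 was 0.968 and 0.917.

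Mir99ahg was past neither limit, beside 4.18% of 13504 genes lower and 3.87% higher for Dicer cKO/Control, 4.73% of 13563 lower and 3.05% higher for ScxHt/Control, and 5.68% of 13555 lower and 7.67% higher for Dicer cKO/ScxHt (baseMean above 50). The 5 genes with the most similar ratios to Control, among 10244 with at least 100 reads in each library, were Dcaf5, Nvl, Tbc1d13, Smg1 and Xpr1. They are at a distance of at most 0.0078, which in so dense a region of genes near a ratio of 1 says little of Mir99ahg itself.

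Spaca6, whose protein acts in the fusion of sperm and egg and whose gene holds the Mir99b cluster, had 2024, 1852 and 1691 reads in the Control, ScxHt and Dicer cKO libraries, and ratios of 0.868 (0.813 to 0.926) in Dicer cKO and 0.877 (0.823 to 0.934) in ScxHt, both over Control, and 1.006 in Dicer cKO over ScxHt. These were near the ratios of Mir125a. Within 500 kb of the Mir100, Mir99a and Mir99b clusters, 24, 21 and 28 genes are annotated. Of these, 3, 5 and 19 had a usable row under their name in RNA-seq, and the others were not measured. The minimum was passed by 2, 2 and 3 (Ubash3b and Sorl1, Usp25 and Mir99ahg, and Oaz1-ps, Lnpep and Spaca6). None of these 7 was past a limit in any of the 3 comparisons. Has1, a hyaluronan synthase gene next to Spaca6 that was noticed after its values were seen, fell short of the minimum, with a baseMean of 40.0 for Dicer cKO/Control and 43.6 for ScxHt/Control. It had 69 reads in Control, 17 in ScxHt and 12 in Dicer cKO, and ratios of 0.181 (0.0890 to 0.336) in Dicer cKO and 0.236 (0.130 to 0.406) in ScxHt, both over Control. Usp25, a ubiquitin protease gene next to Mir99ahg, had the highest ratio of the Mir99a cluster's neighbours, 1.30 (1.21 to 1.39) for Dicer cKO/Control.

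**Figure D5:**
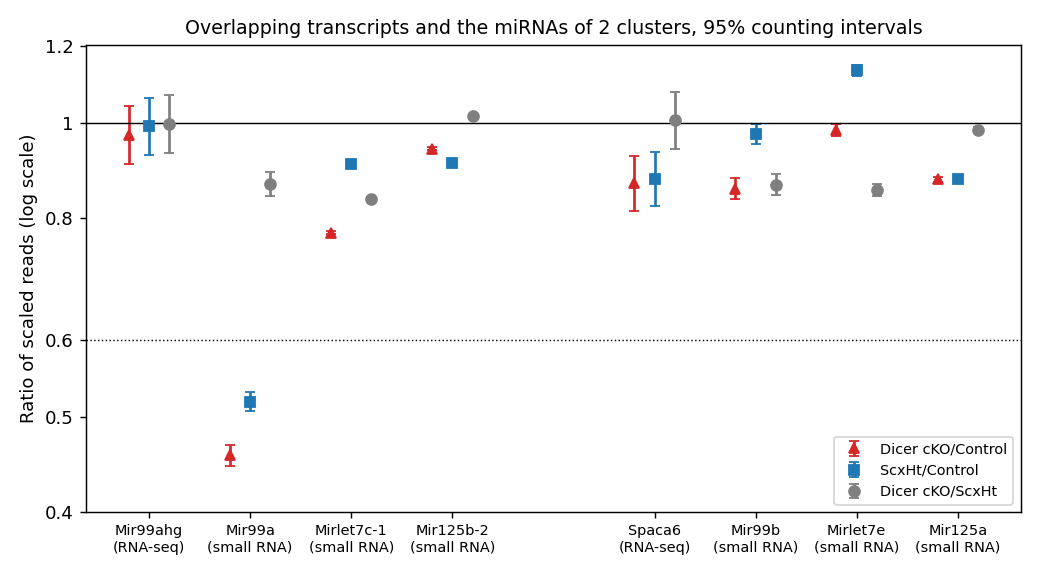
Ratios of scaled reads (vertical axis, log scale) with 95% exact counting intervals for Mir99ahg and Spaca6 in RNA-seq and for the 3 miRNA loci inside each in small RNA-seq, for the 3 comparisons. Mir99ahg stays between 0.973 and 0.997 while Mir99a lies at 0.457 and 0.519 against Control, and Spaca6 and the Mir99b cluster stay between 0.854 and 1.13.

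The RNA-seq table also has a row for each of the 9 hairpins, with few reads. Mir99a had 37 reads in Control, 48 in ScxHt and 80 in Dicer cKO, the 1 row of the 9 that passed the minimum baseMean of 50 for Dicer cKO/Control, and it was under that minimum for ScxHt/Control. Its ratio was 2.25 (1.503 to 3.41) in Dicer cKO and 1.24 (0.793 to 1.96) in ScxHt, both over Control, and 1.84 (1.27 to 2.68) in Dicer cKO over ScxHt, so that Dicer cKO was the high library here and the low one in small RNA-seq. Mirlet7e had 42, 14 and 16 reads and Mirlet7a-2 had 19, 18 and 20. The other 6 rows had at most 9 reads in any library, and no ratio is given for them. Mirlet7e overlaps Gm25927 and Mir99a the gene Gm11146 on the opposite strand, and without a stated strand setting reads of either strand cannot be told apart, although the rows of Gm25927 and Gm11146 had 0 reads in every library. What share of the reads comes from primary transcripts, hairpins or host RNA was not tested.

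The fourth question was whether the genes that make miRNAs, or genes known as targets of the 3 families, differed. Of 18 genes of miRNA processing and let-7 control, 15 passed the minimum, and 0 were lower or higher for Dicer cKO/Control. Over all genes tested, as background for the 4 lists, 4.18% were lower and 3.87% higher for Dicer cKO/Control. In ScxHt over Control, 4.73% were lower and 3.05% higher. With so few genes in a list, a count of 0 or 1 is near that background. Drosha, which releases the hairpins, had 881, 1043 and 863 reads in the Control, ScxHt and Dicer cKO libraries, and its partner Dgcr8 had 445, 628 and 487. Prkra, which encodes a DICER binding protein, was the 1 gene past a limit for ScxHt/Control, higher at 1.71 (1.32 to 2.24), with 90 reads in Control and 161 in ScxHt. Lin28a and Lin28b, which block let-7 processing, had at most 3 and 0 reads.

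Of 31 let-7 targets, 23 passed the minimum for Dicer cKO/Control, of which 2 were lower and 0 higher, and for ScxHt/Control 1 was lower and 0 higher, beside 4.18% and 4.73% of all genes lower. Myc, a growth regulator, had 83, 41 and 46 reads and was lower in both libraries with the Cre allele, at 0.576 (0.392 to 0.835) in Dicer cKO and 0.473 (0.317 to 0.696) in ScxHt. Col1a2, a chain of type I collagen, had 708695, 658387 and 391822 reads and a Dicer cKO/Control ratio of 0.574 (0.572 to 0.576). With total counts the Dicer cKO/Control ratios of Myc and Col1a2 were 0.602 and 0.6004, and neither was past the limit. Hmga2 had at most 10 reads. The median log2 ratio of the measured let-7 targets was -0.31 in Dicer cKO and 0.04 in ScxHt over Control, against -0.03 and 0.02 over all genes tested. The 8 tendon fibroblast markers had a median of -0.88 in Dicer cKO and 0.25 in ScxHt, and their part in the values of the collagen genes was not tested.

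Of 18 miR-99 and miR-100 targets, 14 passed the minimum, and 0 were lower or higher for Dicer cKO/Control. Mtor, a kinase of growth control, had 2593, 2477 and 2378 reads, with ratios of 0.952 and 0.915 for Dicer cKO and ScxHt. In ScxHt, 2 of the 14 were higher than in Control, beside 3.05% of all genes. Fkbp5, a chaperone gene induced by glucocorticoids, had 751, 1640 and 923 reads and a ScxHt/Control ratio of 2.09 (1.92 to 2.28), and Hs3st3b1, a heparan sulfate sulfotransferase, had 55, 115 and 60 reads and a ratio of 2.004 (1.44 to 2.82). In Dicer cKO over Control these ratios were 1.28 and 1.13, and the part of Mir99a and Mir100 in them was not tested. The median log2 ratio of the list was -0.12 for Dicer cKO/Control and -0.01 for ScxHt/Control.

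Of 24 miR-125 targets, 20 passed the minimum. For Dicer cKO/Control, 1 was lower, Irf4, a transcription factor of lymphocytes, with 502, 443 and 281 reads and a ratio of 0.581 (0.501 to 0.674), beside 4.18% of all genes lower. With total counts its ratio was 0.608, past no limit, and Erbb3 was higher at 1.71. For ScxHt/Control, 3 were lower and 1 higher, beside 4.73% and 3.05% of all genes. The lower ones were Erbb3, a growth factor receptor of Schwann cells, with 105, 46 and 165 reads and a ratio of 0.420, Scarb1, a lipoprotein receptor, at 0.569, and Sema4d, an axon guidance gene, at 0.573. With total counts Scarb1 and Sema4d were at 0.611 and 0.616 and past no limit. Arid3b, a DNA binding protein, was the higher one, at 1.85. The list's median log2 ratio was -0.10 in both comparisons. The 6 Schwann cell markers had a median log2 ratio of 2.51 in Dicer cKO and -0.17 in ScxHt over Control, and their part in the value of Erbb3 was not tested.

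Between Dicer cKO and ScxHt, the genes past a limit, named after their values were seen, were E2f5 (a ratio of 0.555) and Col3a1 (0.469) of 21 let-7 targets tested, both lower, and Hs3st3b1 of 14 miR-99 and miR-100 targets, lower at 0.575. Of 19 miR-125 targets, Trp53 was lower at 0.585, and Erbb3 and Sema4d were higher at 3.95 and 2.20. Over all genes tested, 5.68% were lower and 7.67% higher in this comparison, so that most of these counts are near the background. No gene of miRNA processing was past a limit there.

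A match to the seed in the 3′ UTR was searched on the longest annotated 3′ UTR of 10988 genes that passed the minimum, a search added after the data were seen. The site TACGGGT of miR-99 and miR-100 was found in 189 genes (1.72%), CTACCTC of let-7 in 1355 (12.3%) and CTCAGGG of miR-125 in 1939 (17.6%). The sites are written in the sense of the mRNA. The median log2 Dicer cKO/Control ratio was -0.04 for genes with the miR-99 and miR-100 site, -0.04 for let-7 and -0.06 for miR-125, against -0.04 over all 10988. For ScxHt/Control these medians were 0.06, -0.01 and -0.0047, against 0.02. Of the listed targets, 25 of 31 for let-7, 12 of 18 for miR-99 and miR-100 and 20 of 24 for miR-125 held the site of their family. Of the called targets named above, Myc, Fkbp5 and Trp53 had no match in this window, and the others had one. A match does not show that a gene is bound, and no match says only that these letters are not in the window.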

How the data were processed

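RNA-seq and small RNA-seq of Achilles tendon covered 3 genotypes with 1 library each. The authors trimmed adaptors, aligned reads (TopHat and Bowtie2, GRCm38), counted them with HTSeq, and deposited raw read counts per feature. Versions, annotation release and strand setting are not given in the sources used here. The authors also deposited RPKM values made from these counts, used here for levels between loci. Lines that repeat an earlier line were used once for named genes.

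For each pair of libraries, DESeq2 1.42.0 (R 4.3.3) size factors by the median of ratios were used as divisors. The limits (baseMean above 15 in small RNA-seq and above 50 in RNA-seq, ratios of 0.60 and 1.67) are those of the study. Ratios have exact (Clopper-Pearson) 95% intervals, and ratios of partner ratios have conditional exact 95% intervals of the odds ratio. No test was possible with 1 library per group. Depth was 8435829 to 16244232 counts. Positions came from GENCODE vM21 and sequences from RefSeq, both on GRCm38. The ratio and interval procedures were tested on simulated data.

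The members and gene lists were chosen with earlier results of these data known. Named genes were the members, loci sharing their mature sequence or family, overlapping transcripts and genes within 500 kb that passed the minimum, list genes past a limit against Control, and the 5 nearest patterns. Mtor, Drosha, Dgcr8, Lin28a, Lin28b and Hmga2 were named after their values were seen. The alternatives were 4 other scalings (edgeR 4.0.16 TMM, total counts, DESeq2 factors of the 3 libraries jointly, and totals that omit features above 1%), other limits and minimums, a pseudocount of 1, and counts divided by the number of loci.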

Additional observations from a re-analysis of the deposited data

Results flagged for a closer look

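At the Mir99a locus, the small RNA-seq count and the RNA-seq row of the hairpin moved in opposite directions, with both counting intervals clear of 1. The Dicer cKO/Control ratio was 0.457 in small RNA-seq and 2.25 in RNA-seq, and the Dicer cKO/ScxHt ratio was 0.866 and 1.84. At Mirlet7e the ScxHt/Control ratio was 1.13 in small RNA-seq and 0.319 in RNA-seq, where it rests on 42 and 14 reads. The difference between the assays was not tested, since each genotype had 1 library per assay.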

How the results depend on the processing

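No paired analysis was possible because each genotype had 1 library per assay. For Dicer cKO/Control, 2 loci of the clusters were past a limit, and 1 with total counts or with limits of 2 and 0.5. For ScxHt/Control, 2 became 1 with total counts, with total counts without features above 1%, or with the whole interval past the limit, and 0 with limits of 2 and 0.5. The other 30 of 36 recounts of the loci gave the same number, among them all those for Dicer cKO/ScxHt. Those with another minimum, a pseudocount or no loci of a shared mature sequence could hardly change it. No locus had a baseMean below 2621, and Mir99a and Mir100 share no mature sequence. These recounts therefore say nothing of the stability of the calls. The Mir99ahg ratio left its counting interval in 1 of 15 cases, at 1.07 for ScxHt/Control with total counts. Ratios of single loci left their interval in 76 of 135 cases. Partner ratios need no scaling, and the alternatives run on them could hardly move them, so that they say nothing of their stability. Without loci of a shared mature sequence, the pairs left were those of the Mir99b cluster. Mir99a and Mir100, which this choice cannot remove, remained the called loci.

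The genes of the 4 lists past a limit were few, and their number depended on the settings. For Dicer cKO/Control it was 3 (Col1a2, Irf4 and Myc). With total counts it was 1 and none of these (Erbb3, higher). It was 1 with the whole interval past the limit (Col1a2), 0 with limits of 2 and 0.5, 8 with limits of 1.5 and 0.67 and 10 with no minimum. For ScxHt/Control it was 8, and 4 with limits of 2 and 0.5, 2 with the whole interval or a minimum baseMean of 200, and 14 with no minimum. For Dicer cKO/ScxHt it was 6, and 3 with limits of 2 and 0.5 or the whole interval, 14 with limits of 1.5 and 0.67, 1 with a minimum of 200 and 11 with no minimum. Mir99a and Mir100 are read against 1 Control library in both comparisons. Leaving out a library was not possible.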
